A study of Homo sapiens with 10 samples.

Results

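The colony stimulating factor (CSF) genes described here were the human receptor genes CSF1R, CSF2RA, CSF2RB and CSF3R and the human ligand genes CSF1 and IL34. They were chosen by name and not by a measured value, and make up 6 of the 68836 genes counted, 36591 of which are human. Of the 6 genes, 5 had 10 or more counts in 6 or more of the 10 libraries, the filter that left 15455 human genes for testing, and IL34 did not. Each library holds the RNA of human microglia (hMG) sorted as CD11b+ and hCD45+ cells from the brain of 1 mouse at 6 months of age, with mice of both sexes in each group. The cells were derived from the established embryonic stem cell line H9, so that all libraries carry 1 human genome. Their progenitors were raised with recombinant M-CSF (the protein of CSF1), IL-3 and GM-CSF (the protein of CSF2), among other factors, and were injected into the brain at postnatal day 4. The question was whether the genes differ between hMG in 5 AppHu mice, called AppKI in the sample labels, and hMG in 5 AppSAA mice. AppHu mice carry a humanized Aβ sequence in the mouse App gene, and AppSAA mice carry the same change with the Swedish, Arctic and Austrian mutations. Hosts of both groups lacked Rag2 and carried a human CSF1 allele, and both received BLZ945, an inhibitor of CSF1R, as newborns to deplete their own microglia. In that allele codons 33 to 554 of CSF1 replace the matching part of mouse Csf1, whereas the mouse signal peptide and 3' region remain. Reads on human CSF1 can therefore come from the graft or from the host. AppHu mice served as the control, and no library of a host without human CSF1 or of a mouse without BLZ945 was analysed here.

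CSF1R is the receptor tyrosine kinase through which CSF1 and IL-34 keep microglia and other macrophages alive. CSF2RA and CSF2RB encode the ligand-binding and the shared signalling chain of the receptor for GM-CSF, and the same shared chain serves IL-3 and IL-5. CSF3R encodes the receptor for G-CSF and is best known for its role in neutrophils. In brain, neurons are a main source of IL-34, whereas glial cells make CSF1.

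Between 25040739 and 39641854 reads were counted per library, of which 24165871 to 38325734 lay on human genes and 2.12% to 4.97% on mouse genes. Values below are CPM, human counts scaled by the TMM-normalized human library total, unless another scale is named. The 10 microglial markers looked up, among them P2RY12, CX3CR1 and SALL1, passed the filter and summed to 32040 to 36367 CPM in AppHu and 27319 to 35050 CPM in AppSAA, where replicate 4 was lowest. Some defining genes of other cell types, but not all, were near or at 0. MPO (a neutrophil granule enzyme), KIT and CPA3 (mast cells), FCN1 (monocytes) and SOX2 (pluripotent cells) had 0 counts in every library, which allows at most 0.0783 to 0.124 CPM by a floor of 3 counts, a limit that covers counting error only. The 6 dendritic cell markers summed to 1.62 to 3.68 CPM, the 4 pluripotency markers to 0.114 to 0.591 CPM and the 5 mast cell or basophil markers to at most 0.0380 CPM. The list of border macrophages or monocytes that holds FCN1 was not near 0. On it MRC1 had 701 to 1329 CPM, LYVE1 250 to 592, F13A1 19.5 to 178 and CD163 15.5 to 76.6. CCR2 and VCAN had at most 2.18 and 0.618 CPM. In bulk RNA, a lower share of cells that express a gene and less of its RNA in each cell cannot be told apart.

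CSF1R (ENSG00000182578.14) lies on the reverse strand at chr5:150053291-150113372 in GENCODE 44 on GRCh38, and its canonical transcript has 21 exons. In AppHu replicates 3, 4, 6, 7 and 8 it measured 10630, 9840, 10158, 9520 and 10457 CPM. In AppSAA replicates 4, 5, 6, 7 and 8 it measured 8301, 10060, 10241, 9152 and 8952 CPM. The 3 lowest libraries were all AppSAA, but AppSAA replicates 5 and 6 lay among the AppHu libraries, so the groups overlapped. The means were 10121 ± 451 CPM (SD, n = 5) in AppHu and 9341 ± 806 CPM (SD, n = 5) in AppSAA. The log2 fold change of -0.12 (standard error 0.0607, 95% interval -0.25 to 0.016) did not pass the threshold of 0.05 (adjusted p = 0.591 by quasi-likelihood in edgeR, Benjamini-Hochberg over 15455 genes). For log2 CPM a two-sided exact permutation test gave p = 0.103 (adjusted p = 0.258 over the 5 genes). Without AppSAA replicate 6 that exact test gave an unadjusted p of 0.0476 with a difference of -0.15, and without AppSAA replicate 4 the edgeR log2 fold change was -0.076. AppSAA replicate 4, lowest in CSF1R, was also lowest in the summed microglial markers. The 7 markers of border macrophages or monocytes, 5 of which passed the filter, summed to 1603 to 2167 CPM in AppHu and 1080 to 1641 CPM in AppSAA, with FCN1 at 0. The part of either list in the values of CSF1R and of CSF2RA, described below, was not tested.

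CSF1R made up 0.845% to 1.04% of all human counts, with 240884 to 379117 counts per library, and its mean ranked 6 of 15455 in CPM. The 3 other receptor genes brought this share to 1.04% to 1.25%. Counting error is therefore a small part of the spread. The coefficient of variation (CV, SD over mean, pooled within groups) was 6.71% for CSF1R, where counting alone gives 0.184%.

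CSF2RA (ENSG00000198223.18) lies on the forward strand at chrX:1268800-1310381, has 13 exons and sits in a region that the X chromosome shares with the Y, so reads with several alignments could affect its counts. It measured 978, 857, 981, 953 and 1072 CPM in AppHu replicates 3, 4, 6, 7 and 8 and 823, 916, 926, 914 and 805 CPM in AppSAA replicates 4, 5, 6, 7 and 8. AppHu replicate 4 alone lay below the highest AppSAA library. The other 4 AppHu libraries lay above all 5 AppSAA libraries. The means were 968 ± 76.8 CPM (SD, n = 5) in AppHu and 877 ± 57.5 CPM (SD, n = 5) in AppSAA. The log2 fold change was -0.14 (standard error 0.0664, 95% interval -0.29 to 0.0014), and it did not pass the threshold (adjusted p = 0.514, edgeR with Benjamini-Hochberg adjustment). The exact permutation test gave p = 0.0873 (adjusted p = 0.258 over 5 genes). Without AppHu replicate 4 the groups no longer overlapped, so the exact test gave its smallest possible p (unadjusted p = 0.00794, difference -0.18). That p follows from the choice of library, and the reading of this gene in the exact test turns on 1 library. In edgeR the log2 fold change without it was -0.18 with an adjusted p of 0.401. CSF2RA had the smallest p of the 5 genes in both tests.

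CSF2RB (ENSG00000100368.15, chr22:36913628-36940439, forward strand, 14 exons) measured 180, 151, 173, 151 and 141 CPM in AppHu and 133, 145, 163, 150 and 159 CPM in AppSAA, in the same order of replicates. Each group held both high and low libraries and the ranges overlapped over most of their length. The means were 159 ± 16.5 CPM (SD, n = 5) and 150 ± 11.8 CPM (SD, n = 5). The log2 fold change of -0.086 (standard error 0.0806, 95% interval -0.26 to 0.088) had an adjusted p of 0.800 in edgeR with Benjamini-Hochberg adjustment and the exact permutation test gave p = 0.349. In edgeR it was -0.041 without AppHu replicate 3, -0.056 without AppHu replicate 6 and -0.047 without AppSAA replicate 4. Both chains are needed for a receptor that signals, so their ratio was taken within each library, where library scaling plays no part. CSF2RA had 5.06 to 7.60 times as many counts as CSF2RB. The log2 ratio of CSF2RB to CSF2RA was -2.61 ± 0.196 (SD, n = 5) in AppHu and -2.55 ± 0.130 (SD, n = 5) in AppSAA. The difference of 0.057 was within the spread between mice (exact permutation test, two-sided, p = 0.675, adjusted p = 0.802 over 2 ratios).

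CSF3R (ENSG00000119535.20, chr1:36466043-36483278, reverse strand, 17 exons) measured 977, 947, 1051, 930 and 962 CPM in AppHu and 933, 1019, 1019, 979 and 967 CPM in AppSAA. The highest and the lowest of the 10 libraries were both AppHu, and all AppSAA libraries lay between them. The means were 973 ± 46.7 CPM (SD, n = 5) and 983 ± 36.7 CPM (SD, n = 5). Its log2 fold change was 0.014 (standard error 0.0501, 95% interval -0.094 to 0.12), with an edgeR adjusted p of 0.965 (Benjamini-Hochberg), and it had the smallest difference of the 5 genes. The exact permutation test gave p = 0.690. CSF3R was also the steadiest of the 5. Its pooled CV of 4.29% stood at percentile 6.04 among 2069 human genes with a mean of at least 100 CPM, whose median CV was 7.39%. CSF1R, CSF2RA and CSF2RB stood at percentiles 38.8, 49.5 and 69.7 of the same genes. The other neutrophil genes were low. Besides MPO at 0, ELANE had at most 1 count and CEACAM8 at most 7 counts in any library, and CXCR2 had 14.9 to 27.7 CPM. S100A8 ranged from 0.180 to 15.7 CPM and S100A9 from 0.164 to 5.96 CPM. FCGR3B had 49.3 to 63.5 CPM, but its reads are hard to tell from those of the near-identical FCGR3A.

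**Figure D1:**
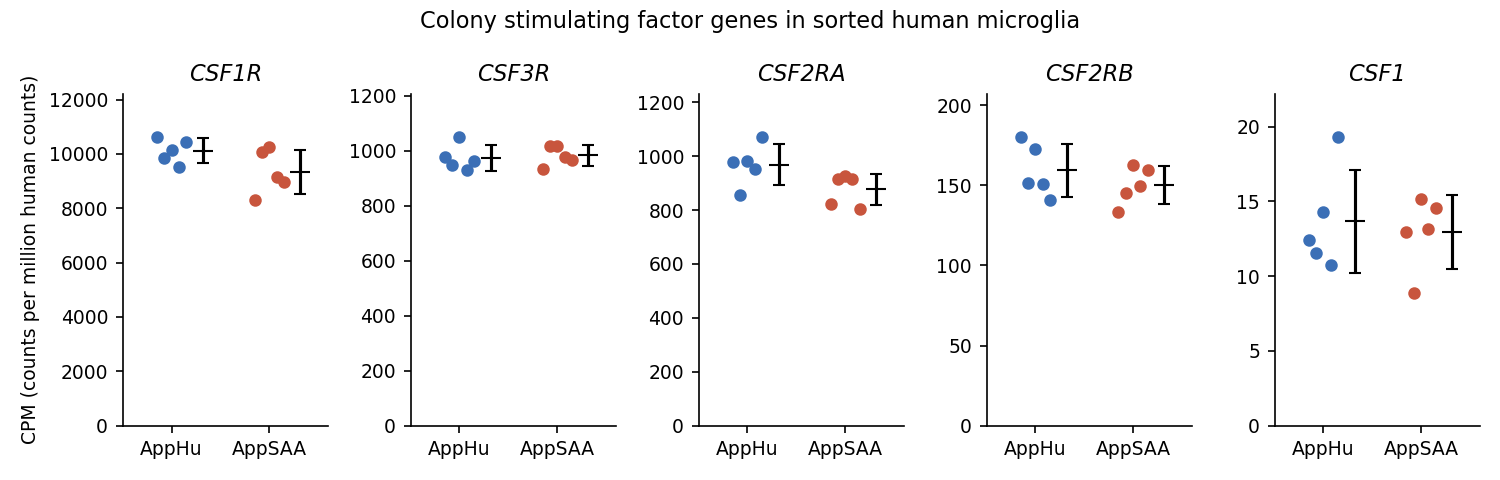
CPM of the 5 genes that passed the filter, on separate linear axes that start at 0, with 1 point per mouse (n = 5 per group) and a bar for the mean and SD. The groups overlap in every panel, and for CSF2RA the overlap rests on AppHu replicate 4 at 857 CPM.

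The ligands were low or not detected. CSF1 (ENSG00000184371.14, chr1:109910242-109930992, forward strand, 9 exons) measured 12.5, 11.5, 14.3, 10.8 and 19.3 CPM in AppHu and 12.96, 8.89, 15.2, 13.2 and 14.6 CPM in AppSAA. AppHu replicate 8 was highest and AppSAA replicate 5 lowest of the 10, and the other libraries of both groups were intermixed. The means were 13.7 ± 3.42 CPM (SD, n = 5) and 12.95 ± 2.46 CPM (SD, n = 5). The log2 fold change of -0.076 (standard error 0.179, 95% interval -0.46 to 0.31) had an adjusted p of 0.940 in edgeR with Benjamini-Hochberg adjustment and p = 0.746 in the exact permutation test. Its sign turned without AppHu replicate 8, where it was 0.080, and without AppSAA replicate 5, where it was 0.027. The CV was 22.4%, of which counting alone gives 4.97%.

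IL34 (ENSG00000157368.12, chr16:70579895-70660682, forward strand) had 1 count in AppHu replicate 6, 1 count in AppSAA replicate 6 and 0 counts in the other 8 libraries. All 10 values lie under the floor of 3 counts per library, or 0.0783 to 0.124 CPM, so no fold was formed. Mouse Il34, in contrast, had up to 43 counts per library although mouse genes held under 5% of all counts. GM-CSF and G-CSF were not detectable either, as CSF2 had 0 counts in every library and CSF3 had 1 count in 1 AppHu library.

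Of the 5 genes tested, edgeR with Benjamini-Hochberg adjustment called 0, where 12 of 15455 human genes, or 0.0776%, were called (0.0712% higher and 0.00647% lower in AppSAA). At an unadjusted edgeR p under 0.05 the count was likewise 0 of 5, beside 9.8% of all genes, and DESeq2 also called 0 of 5, beside 1.39%. For 0 of 5 the groups did not overlap, beside 2.49% of all genes. Among 5 genes a count of 0 is near these background shares. On the log2 scale the 95% edgeR intervals span -0.25 to 0.016 for CSF1R and -0.29 to 0.0014 for CSF2RA. They span -0.26 to 0.088 for CSF2RB, -0.094 to 0.12 for CSF3R and -0.46 to 0.31 for CSF1. These are the sizes of change that this fit leaves possible, and other models shift them. With the library total as a covariate the log2 fold change was -0.21 for CSF1R and -0.24 for CSF2RA. With the mouse share as a covariate it was -0.062 for CSF1R and -0.086 for CSF2RA.

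**Figure D2:**
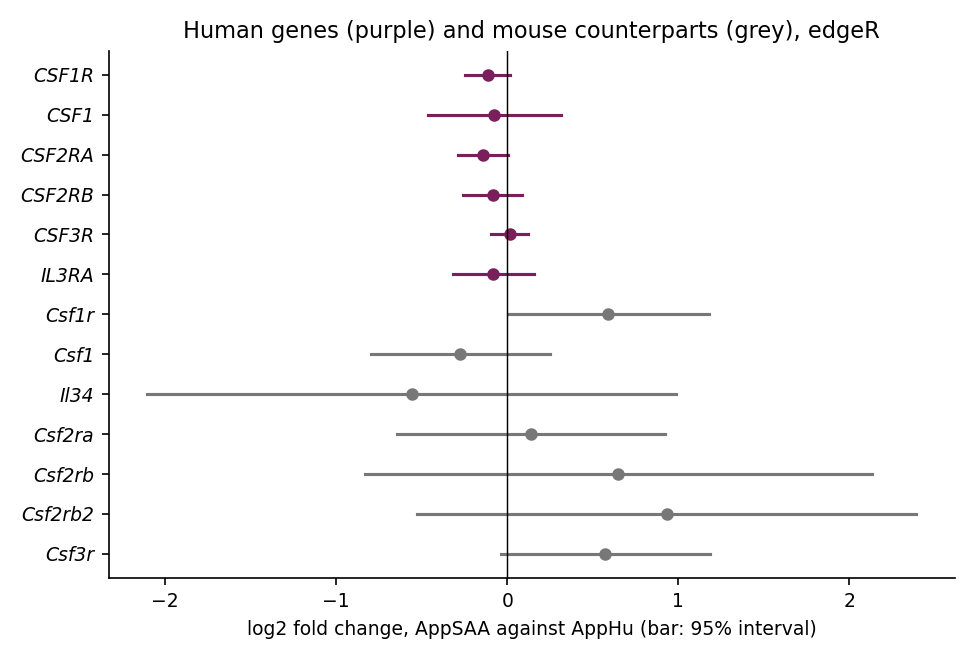
Log2 fold change of AppSAA against AppHu (points) with its 95% interval (bars) from edgeR, for 5 human CSF genes and IL3RA in purple and for 7 mouse counterparts in grey, fitted on mouse counts alone. The human intervals all include 0, and that of CSF1 is the widest of them (-0.46 to 0.31). The mouse intervals are wider, with Csf1r at 0.59 and Il34 at -0.56. That of Csf1r (0.0018 to 1.18) alone leaves out 0, with an edgeR adjusted p of 0.529.

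Levels of different genes were compared as CPM per kilobase of merged exon, since a longer transcript yields more reads. CSF1R was highest at 1965 ± 87.5 in AppHu and 1813 ± 156 in AppSAA (SD, n = 5 each), rank 10 of the 13120 tested genes whose length was known. CSF2RA followed at 236 ± 18.8 and 214 ± 14.1 (rank 100). CSF3R had 91.9 ± 4.41 and 92.8 ± 3.46 (rank 291), below CSF2RA although both had about the same CPM, because its merged exons are longer (10594 against 4093 bases). CSF2RB had 31.9 ± 3.30 and 30.0 ± 2.36 (rank 1088). CSF1 was last at 2.61 ± 0.653 and 2.47 ± 0.469 (rank 7889), within the broad middle of all genes. The ranges of neighbours in this order did not overlap over the 10 libraries. The order was the same with the longest or the canonical transcript as the length, although the levels themselves moved. CSF3R moved most, from 92.3 over all libraries to 325 with the canonical transcript.

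**Figure D3:**
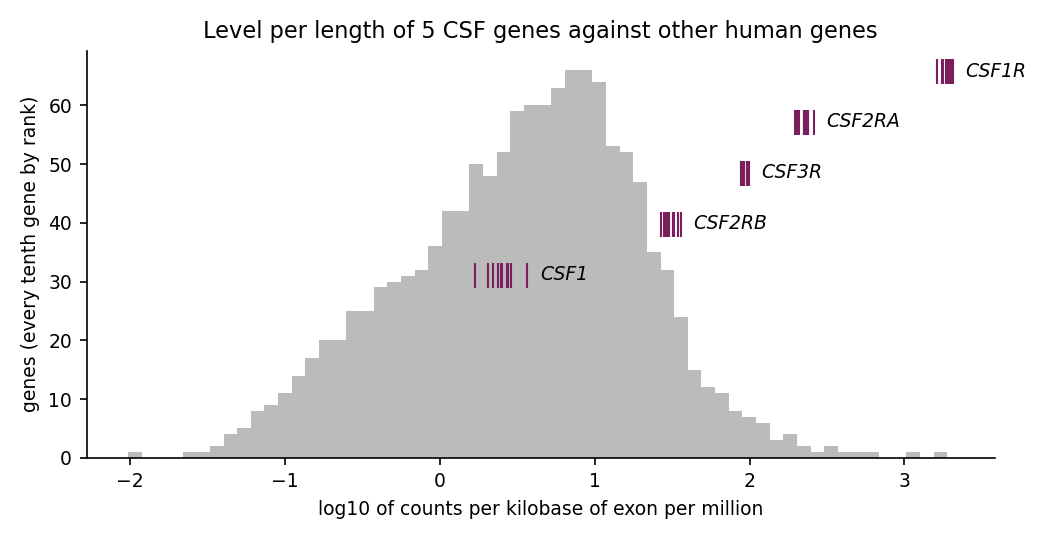
Histogram of the mean log10 CPM per kilobase of exon, for a sample of the 13120 human genes taken evenly by rank, with the 10 libraries of each CSF gene as vertical ticks (the height of a tick row has no meaning). CSF1R, at 1965 and 1813 in the groups, stands near the upper end, and CSF1, at 2.61 and 2.47, lies inside the main body of genes.

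Promoter sequences are shown for CSF1R, CSF2RA and CSF3R, the receptor genes with the highest levels, because all are textbook targets of PU.1, the myeloid factor encoded by SPI1. Each run is the 250 bases before a transcription start in RefSeq on GRCh38.p14, 5' to 3' on the gene's strand, and capitals mark GAGGAA, the core of PU.1 sites, searched on both strands (TTCCTC on the other).

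CSF1R, chr5:150086555-150086804, reverse strand: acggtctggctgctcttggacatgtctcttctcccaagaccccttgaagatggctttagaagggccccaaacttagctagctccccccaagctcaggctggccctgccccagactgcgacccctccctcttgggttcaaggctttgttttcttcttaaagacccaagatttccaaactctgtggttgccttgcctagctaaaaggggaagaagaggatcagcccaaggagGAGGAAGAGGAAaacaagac

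CSF2RA, chrX:1268564-1268813, forward strand: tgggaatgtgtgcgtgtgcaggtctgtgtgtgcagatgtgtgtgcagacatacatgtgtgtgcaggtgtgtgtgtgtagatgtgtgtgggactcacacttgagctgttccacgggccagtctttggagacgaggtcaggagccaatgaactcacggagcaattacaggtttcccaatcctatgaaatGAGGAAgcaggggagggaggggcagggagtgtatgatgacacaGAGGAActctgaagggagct

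CSF3R, chr1:36482914-36483163, reverse strand: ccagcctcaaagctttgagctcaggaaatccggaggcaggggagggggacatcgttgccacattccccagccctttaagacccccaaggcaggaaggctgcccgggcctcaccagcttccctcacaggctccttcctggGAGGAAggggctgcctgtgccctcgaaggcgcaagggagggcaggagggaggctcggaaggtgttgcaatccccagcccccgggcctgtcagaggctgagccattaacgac

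The CSF1R run holds 2 matches side by side, right before the start, and the CSF2RA run holds 2 and the CSF3R run 1. GAGGAA or its complement is found in 8241 of 34961 RefSeq promoter windows of this length (23.57%), so a single match is common. RefSeq lists a further start for CSF1R and for CSF3R, and neither of those windows holds a match. The matches describe the letters only, and no binding was measured in these cells. CSF1, IL34 and CSF2RB were not among the promoters used here. SPI1 itself measured 12.7 ± 0.393 CPM (SD, n = 5) in AppHu and 14.1 ± 1.11 CPM (SD, n = 5) in AppSAA, or 0.16 on the log2 scale (standard error 0.0897, edgeR adjusted p = 0.632).

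Human CSF1 needs the host beside it. The last 12 codons of the human stretch in the host allele (codons 543 to 554, chr1:109925151-109925186, forward strand, transcript ENST00000329608.11) read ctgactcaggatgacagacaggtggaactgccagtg, and the graft carries the same bases. The human coding part of the allele has 1566 bases, or 29.9% of the 5238 merged exon bases of human CSF1. A read inside it cannot be assigned to graft or host, whereas a host read in the retained mouse part would lie on mouse Csf1. Human CSF1 had 346, 444, 508, 357 and 569 counts in AppHu replicates 3, 4, 6, 7 and 8, where mouse Csf1 had 96, 166, 186, 79 and 125. In AppSAA replicates 4, 5, 6, 7 and 8 human CSF1 had 376, 234, 362, 401 and 449 counts and mouse Csf1 48, 54, 101, 66 and 94. Mouse Csf1 was thus counted in every library, at 12.8% to 37.4% of the human gene, against 0.338% to 1.20% for mouse Csf1r relative to human CSF1R. Mouse Csf1 as a percent of human CSF1 was 29.2 ± 7.52 (SD, n = 5) in AppHu and 20.2 ± 5.86 (SD, n = 5) in AppSAA. This percent of raw counts is not corrected for the share of mouse counts. That share was 3.12% to 4.97% in AppHu and 2.12% to 3.85% in AppSAA. The difference in the percent was not tested.

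Relations to the share of counts on mouse genes were taken with log2 CPM over the 10 libraries. Human CSF1 tended to be higher where that share was higher. Pearson's r was 0.651 (permutation p = 0.0426, adjusted p = 0.0907 over 5 genes) and Spearman's rho 0.600 (permutation p = 0.0753, adjusted p = 0.158). Without AppHu replicate 8 and AppSAA replicate 4, the libraries farthest from the median mouse share, r was 0.590. For deviations from the group means it was 0.699, and 5 libraries per group are too few for a value within each. CSF1R had a similar r of 0.638 (permutation p = 0.0406, adjusted p = 0.0907), but it fell to 0.221 without the same 2 libraries, so that relation rests on them. For CSF2RA, CSF2RB and CSF3R r was 0.620, 0.363 and 0.340 (permutation p = 0.0544, 0.304 and 0.338, all above 0.05 after adjustment too). Without the same 2 libraries it was 0.048 for CSF2RA, 0.709 for CSF2RB and 0.435 for CSF3R. For deviations from the group means, r was 0.486 for CSF1R, 0.445 for CSF2RA, 0.232 for CSF2RB and 0.491 for CSF3R. None of the 5 relations passed after adjustment. With the mouse share as a covariate in edgeR the log2 fold change of human CSF1 turned to 0.20, with an adjusted p of 0.852. How much of human CSF1 came from the host was not tested.

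**Figure D4:**
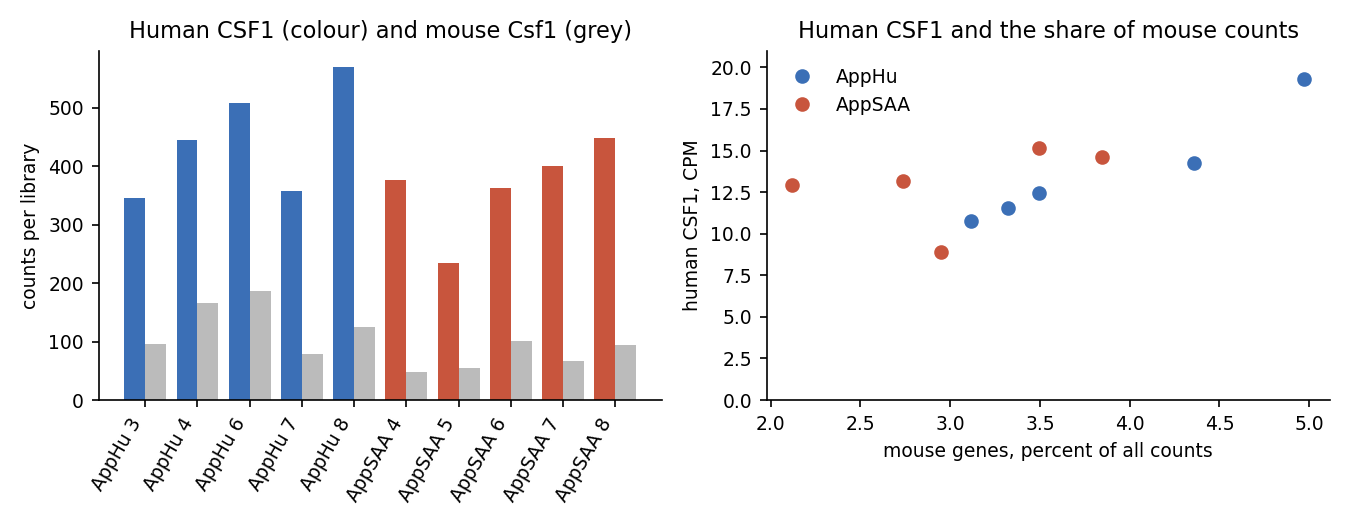
Left, counts of human CSF1 (coloured bars) and mouse Csf1 (grey bars) in each library, from 0. Right, human CSF1 in CPM against the percent of all counts on mouse genes, 1 point per mouse, where AppHu replicate 8 is highest on both axes (19.3 CPM at 4.97%).

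Receptor and ligand were also set against each other within libraries. CSF1R had 541 to 1131 times the counts of CSF1, whichever cells the latter came from. The log2 ratio was 9.56 ± 0.297 (SD, n = 5) in AppHu and 9.51 ± 0.359 (SD, n = 5) in AppSAA, a difference of -0.050 (two-sided exact permutation test, p = 0.802, adjusted p = 0.802 over 2 ratios).

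Mouse reads, fitted alone on 9376 mouse genes, gave the host counterparts. In edgeR 0 mouse genes (0%) were called and 878 (9.36%) had an unadjusted p under 0.05. DESeq2 called 12 (0.128%). Of the 7 CSF genes it gave an adjusted p to Csf1r alone (0.120), so the other 6 could not be called by it. The groups did not overlap for 1.8% of mouse genes and for 0 of the 7 CSF genes. Mouse Csf1r measured 1720 ± 451 CPM of mouse counts (SD, n = 5) in AppHu and 2588 ± 978 CPM (SD, n = 5) in AppSAA, or 0.59 on the log2 scale (standard error 0.275, edgeR unadjusted p = 0.0494 and adjusted p = 0.529). Without AppSAA replicate 5 it was 0.38. AppSAA replicates 4 and 5 were the 2 highest, at 3231 and 3968 CPM, and the other 3 AppSAA libraries lay within the AppHu range or at its edge (1693 to 2214 CPM against 1055 to 2215). The same 2 libraries had the highest sums of 7 mouse microglial markers, 8547 and 9829 CPM, beside 3134 to 6307 CPM in AppHu. The part of these markers in the Csf1r value was not tested. The log2 fold change of mouse Csf3r was 0.57 (standard error 0.286, edgeR adjusted p = 0.546). This gene was also highest in AppSAA replicates 4 and 5, at 262 and 321 CPM, and without replicate 5 its log2 fold change was 0.35. Mouse Csf1 had -0.27 (standard error 0.246, adjusted p = 0.787), Il34 -0.56 (0.723, 0.860), Csf2ra 0.14 (0.366, 0.948), Csf2rb 0.65 (0.693, 0.827) and Csf2rb2 0.93 (0.683, 0.726), with the standard error and the edgeR adjusted p in parentheses. The last 4 rest on 0 to 106 counts per library. Among the mouse reads, 5 neuronal markers summed to 138 to 249 CPM in AppHu and 257 to 450 CPM in AppSAA, 5 oligodendrocyte markers to 36742 to 80961 and 15453 to 47490 CPM, 5 astrocyte markers to 1462 to 6965 and 3850 to 9289 CPM, and 4 endothelial markers to 130 to 441 and 162 to 455 CPM. Their part in the mouse values was not tested.

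The other ligands and chains of the family were mostly not detectable in hMG. Of CSF2, CSF3, IL3, IL5, IL3RA, IL5RA, PTPRZ1 (a receptor for IL-34) and SDC1 (a proteoglycan that binds IL-34), IL3RA alone passed the filter. IL3RA, the IL-3 binding chain that pairs with the CSF2RB product, measured 217 ± 33.7 CPM (SD, n = 5) in AppHu and 205 ± 24.3 CPM (SD, n = 5) in AppSAA. Its log2 fold change was -0.082 (95% interval -0.32 to 0.16, edgeR adjusted p = 0.878), and it ranged from -0.14 to -0.016 with a library left out, nearest 0 without AppHu replicate 8. IL5RA, the matching chain for IL-5, had 0 to 14 counts, IL5 0 to 10 and IL3 0 to 3. PTPRZ1 had 0 counts in every library, and SDC1 had 4 counts in 1 AppSAA library and 0 elsewhere. Of the other class III receptor kinases and their ligands, KIT had 0 counts and FLT3 at most 6. FLT3LG, PDGFA and PDGFB were the 3 of 8 such genes tested, with log2 fold changes of 0.47 (standard error 0.170, adjusted p = 0.355), 0.60 (0.252, 0.459) and -0.10 (0.140, 0.882) in edgeR. Of the 3, 0 were called, beside 0.0776% of all human genes. An unadjusted edgeR p under 0.05 was reached by 2 of them, FLT3LG and PDGFA, beside 9.8% of all human genes. FLT3LG lay at 1.58 to 2.23 CPM in AppHu and 2.24 to 3.00 CPM in AppSAA, with no overlap but at 56 to 87 counts per library. The groups did not overlap for 1 of the 3 genes, beside 2.49% of all human genes.

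Genes downstream of these receptors, genes of enzymes that cut receptors and myeloid transcription factors were read from 4 lists. In edgeR 0 of these genes were called in either direction, beside 0.0776% of all human genes. Of 30 adaptors, kinases and phosphatases that relay or curb CSF1R signals, 29 were tested. Of these, 9 were higher and 20 lower in AppSAA, with a median of -0.049 on the log2 scale, beside 0.0018 and 50.5% higher over all human genes tested. An unadjusted edgeR p under 0.05 was reached by 2 of the 29, beside 9.8% of all human genes. SYK, which binds phosphorylated TYROBP, had -0.20 (standard error 0.0884, adjusted p = 0.477 in edgeR). It lay at 615 to 651 CPM in AppHu and at 411 to 606 CPM in AppSAA, where replicate 5 was lowest by far. Without that library the log2 fold change of SYK was -0.12. FGR, a Src family kinase of myeloid cells, had 1.65 (standard error 0.597, adjusted p = 0.360 in edgeR), but rests on 0 to 41 counts in AppHu and 33 to 115 in AppSAA. CBLB, a ubiquitin ligase that curbs receptor signals, had 0.18 (standard error 0.0946, adjusted p = 0.599 in edgeR).

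GM-CSF and G-CSF receptors signal through JAK and STAT proteins, and 20 of 22 such genes and their targets were tested. Of the 20, 11 were higher and 9 lower, with a median of 0.0033 and 3 at an unadjusted p under 0.05, beside 9.8% of all human genes. STAT5A and STAT5B, the transcription factors most tied to CSF2RB, had 0.0053 (standard error 0.207) and 0.040 (standard error 0.113), and edgeR gave them adjusted p of 0.997 and 0.954. DESeq2 called 2 of the 20, both higher, beside 1.39% of all human genes. BCL2, which blocks apoptosis, was the 1 gene of the 20 whose groups did not overlap, beside 2.49% of all human genes. It had 1.83 to 3.31 CPM in AppHu and 3.77 to 5.10 CPM in AppSAA. Its log2 fold change was 0.76 (standard error 0.181), with an adjusted p of 0.147 by edgeR and of 0.0082 by DESeq2. BCL2A1, a relative of BCL2 that is induced in myeloid cells, had 1.43 to 5.84 CPM in AppHu and 4.83 to 12.5 CPM in AppSAA. AppHu replicate 8 overlapped the AppSAA range. Its log2 fold change was 1.40 (standard error 0.378), with an adjusted p of 0.206 by edgeR and of 0.0156 by DESeq2. CISH, a feedback inhibitor that STAT5 induces, had -0.40 (standard error 0.163, adjusted p = 0.444 in edgeR), at 9.97 to 15.6 and 7.07 to 12.2 CPM.

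CSF1R is shed from the cell surface by ADAM17 and then cut by gamma-secretase. All 8 genes of a list of these enzymes and ADAM10 were tested. Here 2 were higher and 6 lower, with a median of -0.047. None had an unadjusted edgeR p under 0.05, beside 9.8% of all human genes, and DESeq2 called 0, beside 1.39%. NCSTN, PSENEN and PSEN2, all parts of gamma-secretase, had the smallest p of the list, at -0.11, -0.080 and 0.086 on the log2 scale (edgeR adjusted p 0.540, 0.816 and 0.827). Of 10 transcription factors of the myeloid lineage, 5 were higher and 5 lower, with a median of 0.022, and 2 had an unadjusted p under 0.05, beside 9.8% of all human genes. FLI1 had -0.16 (standard error 0.0522, adjusted p = 0.294 in edgeR), at 203 to 219 CPM in AppHu and 178 to 200 CPM in AppSAA. It was the 1 gene of the 10 without overlap, beside 2.49% of all human genes. RUNX1, a regulator of blood and microglial development, had 0.35 (standard error 0.100, adjusted p = 0.232 in edgeR), at 26.4 to 33.2 and 31.3 to 42.9 CPM with overlap. MITF had -0.19 (standard error 0.0961, adjusted p = 0.573 in edgeR). DESeq2 called 0 of these 10.

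**Figure D5:**
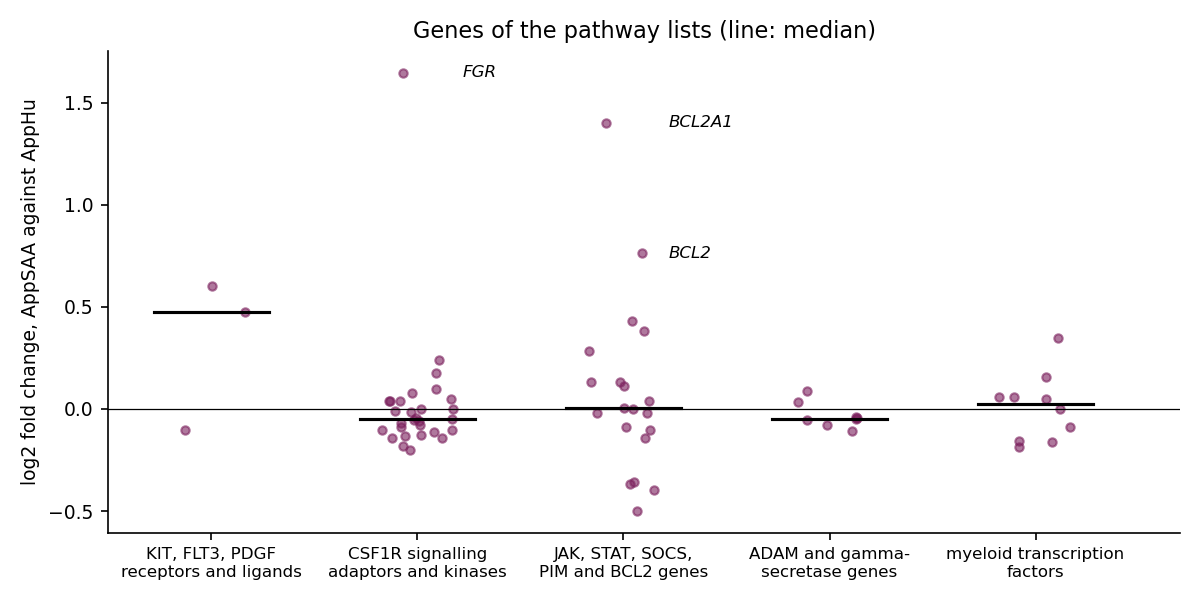
Log2 fold change of AppSAA against AppHu from edgeR for each tested gene of 5 lists (points, spread sideways for sight alone) with the list median (line). Most genes lie near 0, the list medians range from -0.049 to 0.47, and FGR (1.65), BCL2A1 (1.40) and BCL2 (0.76) lie farthest above it.

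As a description, the human genes whose log2 CPM followed each CSF gene most closely over the 10 libraries were taken from the 15454 others, which share the libraries and their normalization. For CSF1R they were CX3CR1 (Pearson's r 0.979), the microglial receptor for fractalkine, CD86 (0.968), a costimulatory ligand, and LMAN2 (0.958). For CSF2RA they were AP4M1 (0.925), PTGS1 (0.915), which encodes cyclooxygenase-1, and METTL7A (0.909). For CSF3R they were SEPSECS (0.932), RNASE4 (0.921) and HSP90B1 (0.917). For CSF2RB and CSF1 they were AC093627.5 (0.942), AC009053.2 (0.918) and ZNF146 (0.916), and AL079307.1 (0.933), AC011815.1 (0.908) and NAA80 (0.896). Among the CSF genes themselves, CSF1R and CSF2RA were the most alike pair (0.769) and CSF3R and CSF1 the least (0.045).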

How the data were processed

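Full-length cDNA was made from total RNA of sorted hMG with SMART-Seq HT PLUS and sequenced as single reads. The authors used STAR 2.7.11a with the genomes mm10 and GRCh38 joined, so that each read could fall on either species, and featureCounts 2.0.1 for counting, per the submitters' processing notes. The deposited table holds raw counts, a whole number per gene and library. Annotation release, strand setting and treatment of reads with several alignments are not given in the sources used here, so reads shared with overlapping genes (RPL7P1 and a Y_RNA at CSF1R, MIR3690 and RNA5SP498 at CSF2RA) or with the Y copy of CSF2RA could not be told apart.

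Groups and replicate numbers were taken from the sample labels, and human genes were those listed above the first mouse gene. No library pair within a group agreed within counting noise (chi-square per degree of freedom 12.2 to 79.4 over 20 pairs). Human genes that had 10 or more counts in 6 or more libraries entered edgeR 4.0.16 (TMM, glmQLFit in legacy mode, glmQLFTest) in R 4.3.3, with Benjamini-Hochberg adjustment over all genes tested and a threshold of 0.05. Mouse genes were fitted apart with the same filter. The fit of human genes, in edgeR and in DESeq2, was tested on simulated data, and the mouse fit was not. DESeq2 1.42.0, limma 3.58.1 (voom), RLE and upper-quartile factors, other filters, thinned counts, covariates, the replicate number as a block and each library left out were alternatives. DESeq2 gave no adjusted p for 1204 human genes and for 6 of the 7 mouse CSF genes. Single genes, as log2 CPM (prior count 2), and ratios, as log2 of the ratio of raw counts, were compared in R. These two-sided exact permutation tests ran over 252 arrangements (smallest possible p 0.00794). Correlations used 100000 permutations in Python 3.11.15 with scipy 1.17.1. Gene lengths and positions are from GENCODE 44, matched by symbol for 84.9% of the genes tested, and the counts may rest on another release.

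Named were the CSF genes and their mouse counterparts, the measured family members, in each gene list the genes called in either tool and the 3 with the smallest edgeR p, the 3 genes most alike to each CSF gene, and marker genes. A gene of the CSF1R signalling list is not reported here and was left out of that list. SPI1, STAT5A and STAT5B were named after their values were seen. The genes and lists were chosen with earlier results of these data known. The relation to the share of mouse counts, and the canonical transcript length, were added after seeing the data.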

Additional observations from a re-analysis of the deposited data

Results flagged for a closer look

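In 60 groups of 5 libraries, the highest or lowest library was compared with the others by its gap over the whole range (critical value 0.710), which chance exceeds in about 1 group in 20, and 4 stood apart. All were AppSAA libraries. Mouse Csf1 in AppSAA replicate 6 measured 119 CPM of mouse counts, where the other 4 lay at 67.5 to 79.2. In AppSAA replicate 5, mouse Csf2rb measured 133 CPM (others 15.6 to 39.3) and human SYK 411 CPM (others 557 to 606). The log2 ratio of CSF1R to CSF1 was 10.1 in the same library (others 9.26 to 9.44), which had the fewest human CSF1 counts of all, 234.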

How the results depend on the processing

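For the 5 CSF genes tested, 105 fits over 21 alternatives gave 0 calls, with a smallest adjusted p of 0.319 in edgeR, limma or DESeq2. CSF1R, CSF2RA and CSF2RB were lower in AppSAA in all of them, at -0.21 to -0.062, -0.24 to -0.086 and -0.13 to -0.027. The largest sizes of CSF1R and CSF2RA came with the library total as a covariate and the smallest with the mouse share. For CSF2RB the smallest came with the replicate block. In addition, 8 fits turned the sign of CSF1 or CSF3R. CSF1 had a log2 fold change of 0.052 with limma-voom and 0.20 with the mouse share as a covariate, and -0.15 to 0.080 with each library left out. CSF3R had -0.0050 with the library total as a covariate and -0.0033 to 0.043 with each library left out. In the exact permutation tests, leaving out each library gave -0.15 to 0.064 for CSF1, -0.0012 to 0.043 for CSF3R, -0.15 to -0.077 for CSF1R, -0.18 to -0.10 for CSF2RA and -0.13 to -0.038 for CSF2RB. CSF1R and CSF2RA passed an unadjusted 0.05 only without AppSAA replicate 6 (p = 0.0476, CSF1R) and without AppHu replicate 4 (p = 0.00794, CSF2RA) in these exact tests. The difference of the log2 ratio of CSF2RB to CSF2RA ranged from -0.023 to 0.099 and that of CSF1R to CSF1 from -0.21 to 0.013 with a library left out. With the longest and the canonical transcript as length, levels over all libraries were 2439 and 2547 for CSF1R (1889 with merged exons), 403 and 508 for CSF2RA (225), 161 and 325 for CSF3R (92.3) and 3.33 with either for CSF1 (2.54), and only CSF2RB moved by less than its spread.

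The number of human genes called was 12, and became 215 with DESeq2, 52 with limma-voom, 19 without the legacy mode, 32 without a filter, 1 with the library total and 5 with the mouse share as a covariate, and 2 to 34 with a library left out (2 without AppHu replicate 3 or 7 or AppSAA replicate 8, 34 without AppSAA replicate 5). Genes called on the gene lists were 0, and 2 with DESeq2. Mouse genes called were 0, and 12 with DESeq2 and 1 without a filter. PDGFB turned to 0.026 with the mouse share as a covariate, and IL3RA was -0.32 with the library total and -0.0097 with the mouse share. With a library left out mouse Csf2ra ranged from -0.046 to 0.27 and mouse Csf2rb from -0.29, without AppSAA replicate 5, to 0.85. The cause of these shifts was not tested.

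The labels do not say whether replicate numbers pair the mice, and the main fits did not pair them. Deviations of same-numbered libraries correlated at 0.0315 to 0.182 over 4 pairs, others at -0.236 to 0.267, and 5 of 8 libraries correlated best with their own number. These values do not settle whether the numbers pair mice. With the replicate block edgeR called 59 human genes, CSF1 had 0.033, SYK -0.12, mouse Csf1r 0.22, mouse Csf3r 0.21 and mouse Csf2rb -0.64, and no CSF gene was called.

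IL34, CSF2 and CSF3 lie under 3 counts in every library, so depth limits what can be said of them. For CSF1, with 234 to 569 counts, the spread between mice exceeded counting error (CV of 22.4% against 4.97%).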
